A study of Mus musculus with 11 samples.

Results

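The genes described here are 45 genes of the Wnt pathway and of crypt stem cells, taken from a list of symbols, out of 35683 genes in the table of colon RNA. All 45 were found, and their transcripts were summed per Ensembl gene. RNA was sequenced from full-thickness colon at 2 weeks of age, from 6 Tnfr1-/- and 5 wild-type mice, with 1 mouse per library. Tnfr1-/- mice lack TNFR1, the receptor of the cytokine TNF that is encoded by Tnfrsf1a. The labels give no sex, litter, batch, strain or agent, and do not say how the allele was made. The series asks, by its title, about the loss of this receptor early in life.

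Tnfrsf1a was at 19.0, 21.1 and 28.0 (lowest, median and highest of 6 Tnfr1-/- libraries), against 73.1, 70.2, 61.7, 68.3 and 62.0 in wild-type replicates 1 to 5, so the genotypes did not overlap and matched the labels. The log2 fold change came to -1.57 (SE 0.10, adjusted p = 8.5e-05 by limma). It was the 1 gene called among 15079 tested, 0.00663% of them. A typical library held about 35.0 M reads, estimated from the deposited mean counts. Abundance below means TPM after scaling by the size factor of its library. It is per transcript length, so levels can be compared between genes only roughly. Short transcripts held much of some sums: 56% for Ctnnb1 (1292 bases), 35.4% for Prom1 (1089 bases) and 47% for Lrig1 (438 bases). Summed abundance ranged from 934563 to 1055498 per library. All 12 epithelial, all 10 fibroblast and all 8 smooth muscle markers were detected. Wild-type replicates 1 and 2 stood apart in the sums of epithelial and fibroblast markers. Their epithelial markers summed to 11277 and 13155, against 7495 to 10621 in Tnfr1-/- and 8123 to 8606 in the other wild-type libraries. All 12 epithelial markers had a negative log2 fold change, as had 7855 of the 15079 genes tested. Of the 12, 1 was at an unadjusted limma p under 0.05, against 9.37% of all genes. The fibroblast markers of wild-type replicates 1 and 2 summed to 1863 and 1822, against 2244 to 3408 in Tnfr1-/- and 2687 to 4038 in the other wild-type libraries. Their smooth muscle markers summed to 7483 and 4713, against 6774 to 9076 in Tnfr1-/-. The other wild-type libraries ranged from 5654 to 12271 for smooth muscle, with the highest sum in wild-type replicate 4. In such whole-wall samples, fewer cells of a type and less RNA per cell cannot be told apart.

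Wnt proteins are lipid-modified ligands. They bind a Frizzled receptor together with the co-receptor LRP5 or LRP6, and this stops the destruction complex, of which APC is a part, from degrading beta-catenin. Beta-catenin then acts with TCF and LEF factors on target genes. R-spondins raise the response by binding LGR receptors, which keeps the ubiquitin ligases RNF43 and ZNRF3 from removing Frizzled. In the intestine, mesenchymal cells under the crypts secrete many of these ligands and their antagonists, while stem cells at the crypt base read the signal.

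No member passed the test between genotypes. The filter of an abundance of at least 1 in at least 5 libraries let 44 of the 45 be tested, and the smallest limma adjusted p was 0.31. The log2 fold change was positive for 29 and negative for 15, against 7224 and 7855 of all genes tested. The members' median log2 fold change was 0.03, against -0.01 over all genes tested. At an unadjusted p under 0.05 there were 5 members, 11.36% of those tested, against 9.37% of all genes. Of these, 4 were lower in Tnfr1-/-, namely Myc, Prom1, Ccnd1 and Ephb2, and 1, Fzd7, was higher. Over all genes 5.17% were at such a p and lower, and 4.2% were at such a p and higher. None of the 44 tested members had groups that did not overlap, against 1.49% of all genes. The 95% interval of the fold change lay within 1.5-fold in either direction for 36 members and within 2-fold for 42. For those members, changes beyond these sizes lay outside the intervals.

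**Figure D1:**
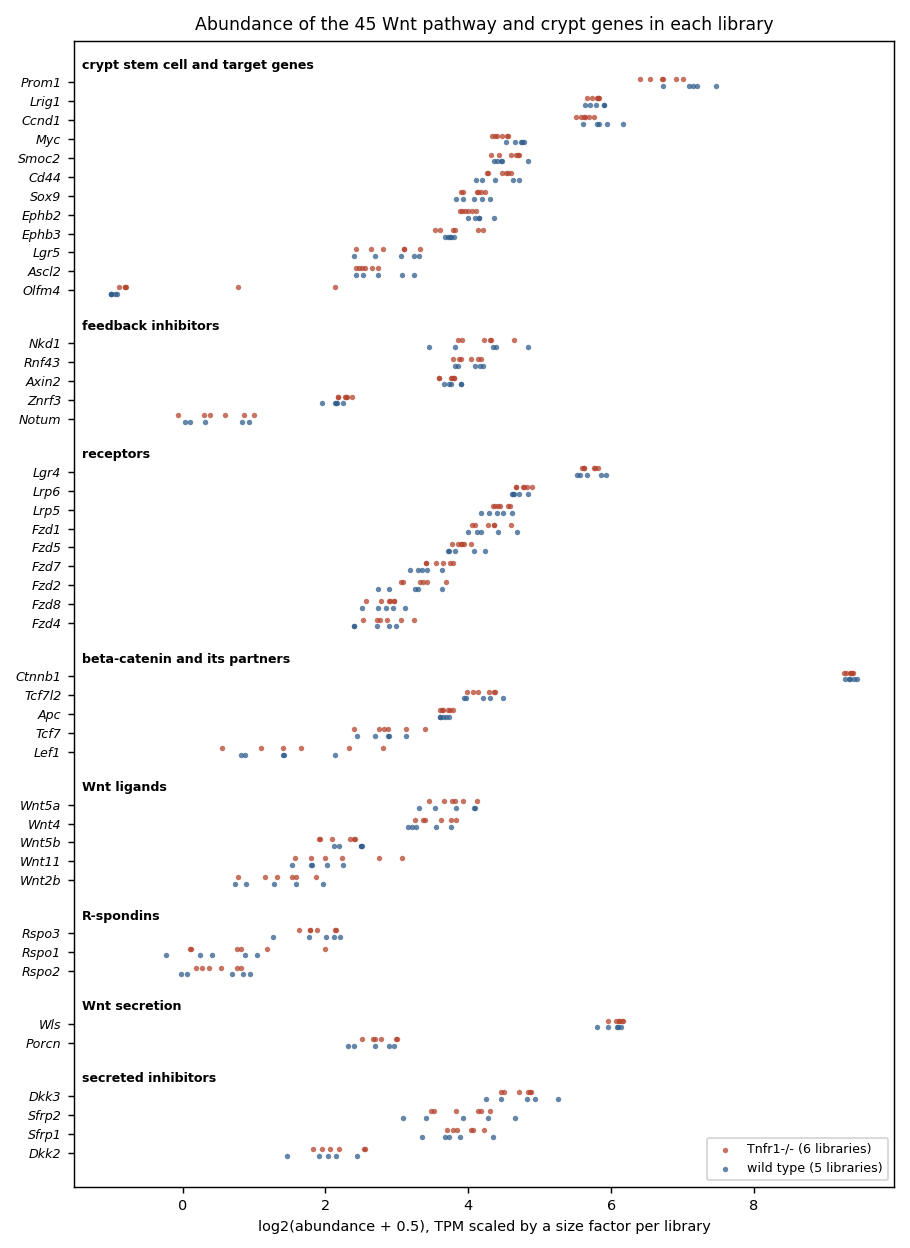
Abundance of the 45 genes by role, as log2(abundance + 0.5), where abundance is TPM scaled by a size factor per library. Each point is 1 library, Tnfr1-/- (n = 6) above wild type (n = 5), and the 2 genotypes overlap for every tested member, from Notum near 1 to Ctnnb1 near 650.

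**Figure D2:**
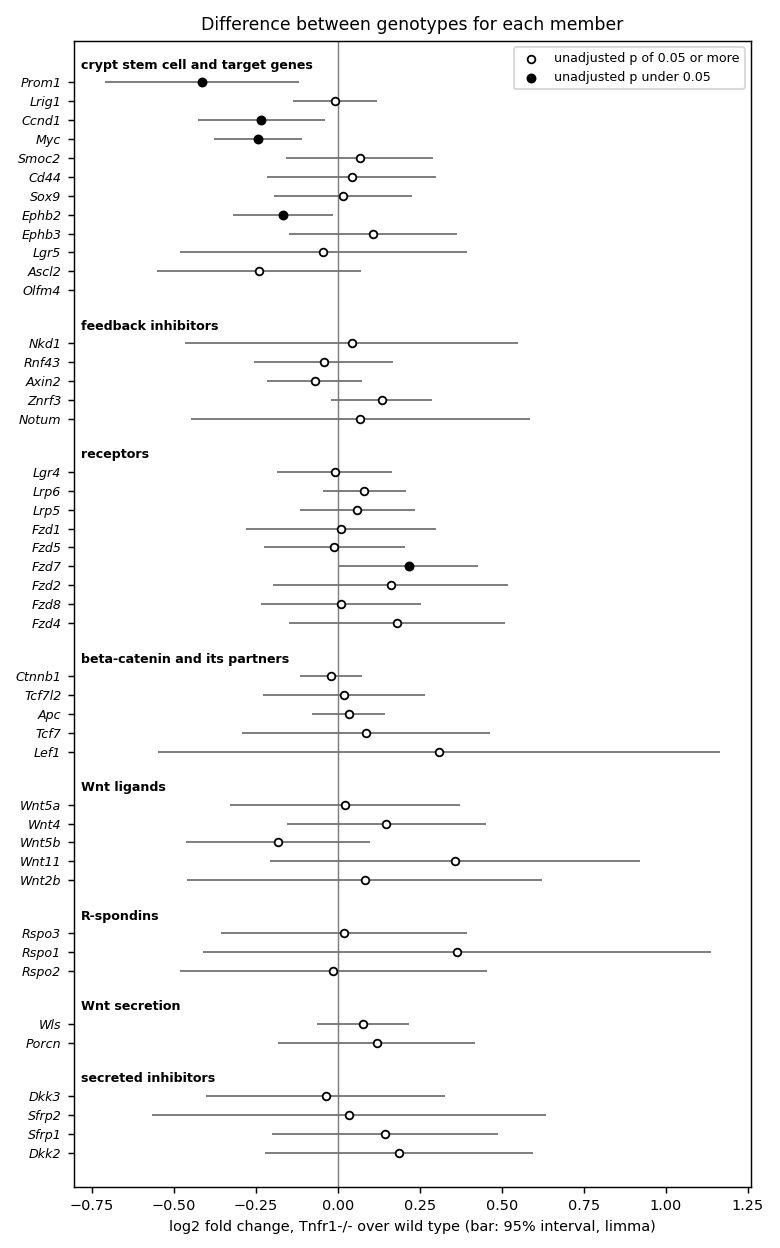
Log2 fold change of each member, Tnfr1-/- over wild type, with its 95% interval from limma, by role. Filled points mark the 5 members at an unadjusted p under 0.05, and none passed after adjustment over 15079 genes. Olfm4 was not tested and has no point.

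Among the roles, the crypt stem cell and target genes held the largest share of nominal differences. Of 11 tested genes, 4 were at an unadjusted p under 0.05, all 4 lower. Over all genes tested, 9.37% were at such a p, and 5.17% were at such a p and lower. The role is small and was listed with earlier results of these data known, so its count was not tested. The proto-oncogene Myc, a Wnt target that drives crypt cell growth, was at 19.6, 21.2 and 23.1 (lowest, median and highest) in Tnfr1-/- libraries, against 26.4, 24.7, 26.9, 26.2 and 22.7 in wild-type replicates 1 to 5. On GRCm38 the gene lies on chromosome 15 at 61985391 to 61990374 (+ strand). The groups met only through wild-type replicate 5, and 4 of the 6 Tnfr1-/- libraries lay below every wild-type one. Its mean was 21.4 ± 1.44 in Tnfr1-/- (SD, n = 6), against 25.4 ± 1.72 in wild type (SD, n = 5). The log2 fold change came to -0.24 (SE 0.06, adjusted p = 0.31 by limma, unadjusted p = 0.00213).

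Prom1 encodes prominin-1, a membrane glycoprotein found on crypt and other epithelial cells. It was the most abundant gene of this role, at 84.4, 104.6 and 127.9 (lowest, median and highest) in Tnfr1-/-, against 177, 146.6, 135.8, 105.7 and 141.5 in wild-type replicates 1 to 5. Prom1 lies on chromosome 5 at 43993620 to 44102032 (- strand). Again 4 Tnfr1-/- libraries lay below every wild-type one, and 4 wild-type libraries lay above every Tnfr1-/- one. Its log2 fold change, the largest of the 4 in size, came to -0.41 (SE 0.135, adjusted p = 0.40 by limma). The interval ran from 0.612 to 0.922 of the wild-type level.

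Ccnd1, which encodes the G1 cyclin D1, was at 45.05, 48.9 and 53.9 (lowest, median and highest) in Tnfr1-/-, against 71.3, 60.8, 55.0, 56.4 and 48.0 in wild-type replicates 1 to 5. Ccnd1 lies on chromosome 7 at 144929931 to 144939925 (- strand). Its highest wild-type library was replicate 1, and replicate 5 lay within the Tnfr1-/- range. Its log2 fold change came to -0.23 (SE 0.09, adjusted p = 0.47 by limma). Ephb2, a receptor for ephrins that helps keep cells in place along the crypt, was at 14.2, 15.2 and 16.8 (lowest, median and highest) in Tnfr1-/-, against 17.3, 20.1, 15.5, 17.2 and 16.5 in wild type. Ephb2 lies on chromosome 4 at 136647539 to 136835988 (- strand), and its groups overlapped between 15.5 and 16.8. Its log2 fold change came to -0.17 (SE 0.07, adjusted p = 0.50 by limma).

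Apart from Myc, these differences shrank when wild-type replicates 1 and 2 were left out. Myc then had a log2 fold change of -0.23 (limma unadjusted p = 0.0114, adjusted p = 0.19). Prom1 was at -0.275 (unadjusted p = 0.084), Ccnd1 at -0.11 (unadjusted p = 0.15) and Ephb2 at -0.09 (unadjusted p = 0.182). Of all genes tested without these 2 libraries, 16.5% were at an unadjusted p under 0.05, against 9.37% with all libraries. With the epithelial marker level as a covariate, the log2 fold changes were -0.24 for Myc, -0.34 for Prom1, -0.18 for Ccnd1 and -0.12 for Ephb2. All 10 markers of dividing cells had a negative log2 fold change, as had 7855 of the 15079 genes tested. Of the 10, 1 was at an unadjusted p under 0.05, against 9.37% of all genes. The sums of these markers ranged from 268 to 310 in Tnfr1-/- and from 275 to 389 in wild type. The part of dividing cells in the values of Myc and Ccnd1 was not tested.

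**Figure D3:**
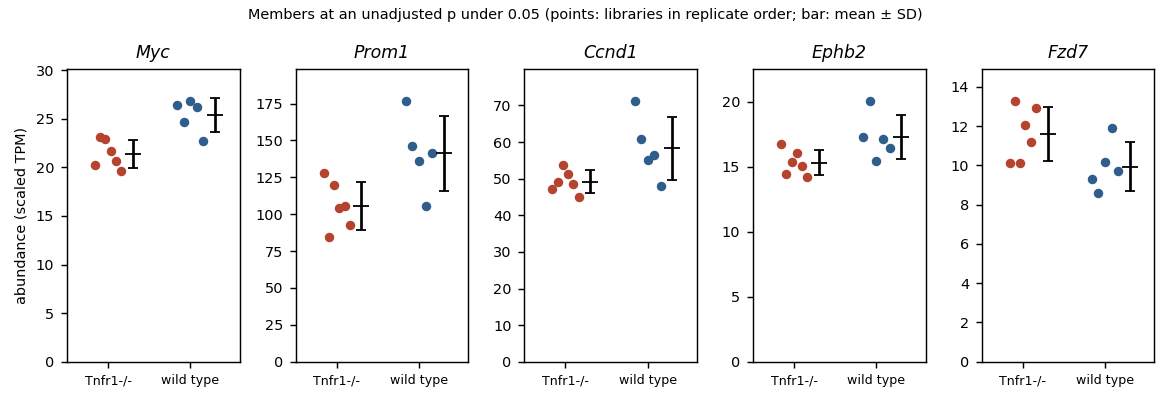
Abundance (scaled TPM, axis from 0) of the 5 members at an unadjusted p under 0.05, 1 point per library in replicate order, Tnfr1-/- left and wild type right, with mean ± SD beside the points. In each panel the genotypes overlap, for Myc only at 22.7 to 23.1.

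The markers of the stem cells themselves had values on both sides of the wild-type mean. Lgr5, the R-spondin receptor that marks crypt base stem cells, was at 7.12 ± 1.73 in Tnfr1-/- (SD, n = 6), against 7.40 ± 1.99 in wild type (SD, n = 5). Its interval, from 0.716 to 1.32 of the wild-type level, covered differences of some size in either direction, which could not be detected with this spread. Ascl2, the transcription factor of stem cell fate, averaged 5.41 ± 0.477 in Tnfr1-/- and 6.63 ± 1.75 in wild type, with a log2 fold change of -0.24 (SE 0.14, limma adjusted p = 0.63). Its wild-type libraries spread from 4.87 to 8.97, and its Tnfr1-/- libraries from 4.88 to 6.17. Without wild-type replicates 1 and 2 its log2 fold change was -0.46 (limma unadjusted p = 0.0033, adjusted p = 0.15), where 16.5% of all genes were at an unadjusted p under 0.05. Without wild-type replicate 5 it was -0.13 (unadjusted p = 0.317).

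Smoc2, a secreted matrix protein of stem cells, was at 23.4 ± 2.61 in Tnfr1-/- and 22.3 ± 3.32 in wild type. Sox9, a crypt transcription factor, was at 16.5 ± 1.597 in Tnfr1-/- and 16.4 ± 2.25 in wild type. Lrig1, which restrains ErbB signalling in stem cells, was at 54.4 ± 2.51 in Tnfr1-/- and 54.8 ± 4.53 in wild type. None of these 3 differed beyond the spread between mice. Cd44, a hyaluronan receptor and Wnt target, was at 21.4 ± 2.18 in Tnfr1-/- and 20.9 ± 3.92 in wild type. Ephb3, the relative of Ephb2, was at 14.1 ± 2.80 in Tnfr1-/- and 12.8 ± 0.419 in wild type, so the spread was wider in Tnfr1-/-.

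Olfm4, a secreted glycoprotein that in mice marks stem cells of the small intestine, was close to absent and did not pass the filter. In Tnfr1-/- replicates 1 to 6 it was at 0.04, 1.21, 0.07, 3.87, 0.07 and 0.08. Wild-type replicates 1 to 5 had 0, 0, 0, 0.02 and 0.03. The genotypes did not overlap, but the lowest Tnfr1-/- and the highest wild-type value lay close together near 0. Replicates 2 and 4 of Tnfr1-/- held nearly all of it, and the remaining values stand for very few reads. Small intestine markers, chosen after these values were seen, summed to 3.59 to 6.71 in Tnfr1-/- and 3.14 to 10.83 in wild type.

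None of the feedback inhibitors, which Wnt signalling itself induces, passed the test. Nkd1, which acts on Dishevelled and was the most abundant of the 5, was at 14.02, 18.7 and 24.4 (lowest, median and highest) in Tnfr1-/-, against 13.6, 10.4, 20.5, 28.1 and 19.8 in wild-type replicates 1 to 5. Both the lowest and the highest libraries were wild type. Axin2, a scaffold of the destruction complex and a common readout of the pathway, was at 12.7 ± 0.896 in Tnfr1-/- and 13.3 ± 1.02 in wild type, with an interval from 0.861 to 1.05 of the wild-type level. The ubiquitin ligases had opposite signs. Rnf43 was at 15.4 ± 1.69 in Tnfr1-/- and 15.9 ± 2.03 in wild type. Znrf3 was at 4.31 ± 0.254 in Tnfr1-/- and 3.89 ± 0.309 in wild type (limma adjusted p = 0.59). Notum, an enzyme that strips the lipid from Wnt proteins, was rare at 0.968 ± 0.390 in Tnfr1-/- and 0.904 ± 0.410 in wild type.

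Among the 9 receptors, Fzd7, a Frizzled of crypt stem cells, was at 10.1, 11.6 and 13.3 (lowest, median and highest) in Tnfr1-/-, against 9.28, 8.58, 10.2, 11.9 and 9.73 in wild type. Fzd7 lies on chromosome 1 at 59482424 to 59486955 (+ strand). There were 3 Tnfr1-/- libraries above every wild-type one and 3 wild-type libraries below every Tnfr1-/- one. Its log2 fold change came to 0.22 (SE 0.10, adjusted p = 0.53 by limma, unadjusted p = 0.0476). Without wild-type replicates 1 and 2 it was 0.12 (unadjusted p = 0.275), and with the epithelial marker level as a covariate it was 0.16 (unadjusted p = 0.0878).

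Lgr4, the R-spondin receptor of most crypt cells, was the most abundant receptor. It was at 47.8, 51.3 and 55.5 (lowest, median and highest) in Tnfr1-/-, against 57.6, 60.1, 45.5, 46.7 and 50.1 in wild type. The wild-type libraries enclosed the Tnfr1-/- ones. The co-receptor Lrp6 was at 26.7 ± 1.66 in Tnfr1-/- and 25.2 ± 1.66 in wild type, and Lrp5 at 21.4 ± 1.52 in Tnfr1-/- and 20.6 ± 2.45 in wild type. The remaining Frizzled genes had mean abundances of 6.48 (Fzd4) to 19.2 (Fzd1), with log2 fold changes from -0.01 for Fzd5 to 0.18 for Fzd4. All 9 receptors had intervals within 1.5-fold.

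Ctnnb1, which encodes beta-catenin, was far the most abundant member. It was at 614, 651 and 668 (lowest, median and highest) in Tnfr1-/-, against 695, 642, 673, 618 and 647 in wild-type replicates 1 to 5. The groups lay over each other, and the interval from 0.923 to 1.05 of the wild-type level was the narrowest of any member. Apc was at 12.4 ± 0.650 in Tnfr1-/- and 12.1 ± 0.479 in wild type. Tcf7l2, the main TCF factor of intestinal epithelium, was at 18 ± 2.11 in Tnfr1-/- and 17.8 ± 2.96 in wild type. Tcf7, a TCF factor also abundant in T cells, was at 7.11 ± 1.81 in Tnfr1-/- and 6.59 ± 1.24 in wild type. T cell markers summed to 7.72 to 14.07 in Tnfr1-/- and 8.40 to 14.74 in wild type.

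Lef1, the TCF relative that acts in hair follicles as well as in lymphocytes, was among the members with the widest spread. In Tnfr1-/- replicates 1 to 6 it was at 2.15, 1.63, 2.65, 4.55, 0.964 and 6.51. Wild-type replicates 1 to 5 had 2.16, 2.17, 3.88, 1.34 and 1.27. Both the lowest and the highest libraries were Tnfr1-/-, and the genotypes overlapped (log2 fold change 0.31, SE 0.39, limma adjusted p = 0.84).

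That spread followed hair follicle genes, which were present in colon libraries at widely different levels. The 12 hair follicle markers, inner root sheath and hair shaft keratins among them, were listed after the values were seen. They summed to 423, 76.6, 1209, 1959, 3.06 and 3352 in Tnfr1-/- replicates 1 to 6, against 561, 745, 968, 285 and 259 in wild-type replicates 1 to 5. All 12 were above 0 in every library, and they were lowest in Tnfr1-/- replicate 5, where Krt71, a keratin of the inner root sheath, was at 0.45. The log2 level of Lef1 followed the mean log2 level of these markers over the 11 libraries with Pearson's r = 0.86 (permutation adjusted p = 0.0081) and Spearman's rho = 0.96 (permutation adjusted p = 0.0022). Without Tnfr1-/- replicates 2 and 5, the libraries farthest from the median, r was 0.96. Of all genes tested, 1.64% had an r this high. With the hair follicle level as a covariate, Lef1 was 0.41 higher in Tnfr1-/- on the log2 scale (limma unadjusted p = 0.0463, adjusted p = 0.48). With no covariate its log2 fold change was 0.08 without Tnfr1-/- replicate 6 and 0.53 without Tnfr1-/- replicate 5. Squamous epithelium markers summed to 236 to 1124 in Tnfr1-/- and 289 to 473 in wild type, with the lowest sum in Tnfr1-/- replicate 5. All 8 had a higher mean in Tnfr1-/-, 2 at an unadjusted p under 0.05. Over all genes tested, 9.37% were at such a p, and 4.2% were at such a p and higher. The part of the squamous markers in the Lef1 values was not tested.

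Notum followed the same markers more loosely (r = 0.74, permutation adjusted p = 0.04, and rho = 0.79, permutation adjusted p = 0.0417), and r was 0.68 without the same 2 libraries. Rspo1, an R-spondin made by mesothelium among other tissues, followed mesothelial markers instead. It was at 0.584, 0.578, 1.20, 1.26, 1.77 and 3.50 in Tnfr1-/- replicates 1 to 6, against 0.348, 0.683, 1.33, 1.57 and 0.831 in wild type. Its log2 fold change came to 0.36 (SE 0.35, adjusted p = 0.78 by limma), with the highest library in Tnfr1-/- and the lowest in wild type. With the mean log2 level of the 6 mesothelial markers, 5 of which passed the filter, r was 0.88 (permutation adjusted p = 0.0056). Spearman's rho was 0.87 (permutation adjusted p = 0.0198), and r was 0.77 without Tnfr1-/- replicates 5 and 6. Of all genes tested, 0.0796% had an r this high. Mesothelin (Msln), a defining marker, ranged from 0.669 to 5.17 in Tnfr1-/- and from 0.457 to 3.04 in wild type. Krt7, also in this marker list, ranged from 97.0 to 138.6 in Tnfr1-/- and from 103.5 to 161.1 in wild type. Its lowest library was Tnfr1-/- replicate 6, where Rspo1 was highest.

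**Figure D4:**
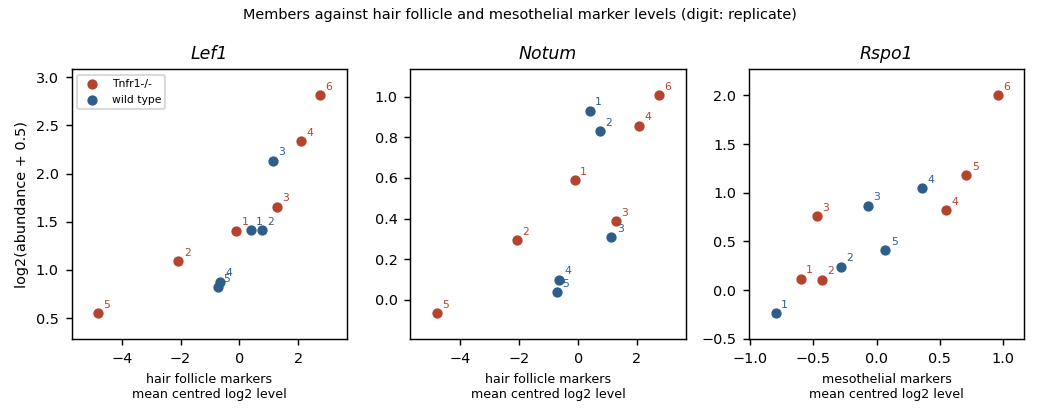
Log2(abundance + 0.5) of Lef1, Notum and Rspo1 against the mean centred log2 level of hair follicle or mesothelial markers, 1 point per library with its replicate digit, Tnfr1-/- (n = 6) and wild type (n = 5). Lef1 climbs with the follicle level from Tnfr1-/- replicate 5, at 0.964, to Tnfr1-/- replicate 6, at 6.51.

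None of the Wnt ligands passed the test. Wnt5a, a mesenchymal ligand that acts mainly outside the beta-catenin pathway, was the most abundant. It was at 10.4, 13.4 and 16.8 (lowest, median and highest) in Tnfr1-/-, against 11.0, 9.40, 16.4, 13.7 and 16.6 in wild-type replicates 1 to 5. The 2 genotypes covered nearly the same range. Wnt4 was at 11.2 ± 1.90 in Tnfr1-/- and 10.1 ± 1.97 in wild type. Wnt5b was at 4.09 ± 0.730 in Tnfr1-/- and 4.69 ± 0.672 in wild type. The remaining ligands were less abundant and more variable. Wnt2b, a mesenchymal ligand of the beta-catenin pathway, was at 2.16 ± 0.670 in Tnfr1-/- and 2.07 ± 0.909 in wild type. Wnt11 had the second highest fold change of the ligands and R-spondins, at 4.55 ± 2.10 in Tnfr1-/- and 3.23 ± 0.694 in wild type (log2 fold change 0.36, SE 0.26, limma adjusted p = 0.70). Its r with the hair follicle level was 0.72, which did not pass (permutation adjusted p = 0.0622). Without Tnfr1-/- replicate 6 its log2 fold change was 0.19, and with the hair follicle level as a covariate it was 0.41 (limma unadjusted p = 0.0252, adjusted p = 0.43).

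Of the other R-spondins, Rspo3, the main one of the pericryptal mesenchyme, was at 2.59, 3.07 and 3.93 (lowest, median and highest) in Tnfr1-/-, against 2.90, 1.89, 4.13, 3.83 and 3.54 in wild type. The wild-type libraries enclosed the Tnfr1-/- ones. Rspo2 was rare, at 0.924 ± 0.259 in Tnfr1-/- and 0.972 ± 0.432 in wild type. Its reads were about 63.2 in a typical library, and those of Rspo1 about 40.7, so the intervals of both were wide. Wls, the carrier that brings Wnt proteins to the cell surface, was at 61.8, 68.3 and 71.3 (lowest, median and highest) in Tnfr1-/-, against 68.1, 70.0, 61.5, 67.1 and 55.5 in wild type. The genotypes overlapped over most of their ranges. Porcn, which attaches the lipid to Wnt proteins, was at 6.38 ± 0.904 in Tnfr1-/- and 5.89 ± 1.25 in wild type.

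The secreted inhibitors varied more between mice than between genotypes. Dkk3, a Dickkopf family member of mesenchymal cells, was the most abundant. It was at 21.5, 26.9 and 29.0 (lowest, median and highest) in Tnfr1-/-, against 21.5, 18.6, 29.9, 37.8 and 27.7 in wild type. The wild-type libraries enclosed the Tnfr1-/- ones. Sfrp1 and Sfrp2 encode secreted Frizzled-like proteins that bind Wnt. Sfrp2 was at 14.9 ± 3.66 in Tnfr1-/- and 15.3 ± 6.75 in wild type, with 7.98 in wild-type replicate 2 and 24.7 in wild-type replicate 4. Sfrp1 was at 15.0 ± 2.10 in Tnfr1-/- and 13.8 ± 3.79 in wild type. Dkk2, a Dickkopf that binds LRP5 and LRP6, was at 4.14 ± 0.996 in Tnfr1-/- and 3.59 ± 0.967 in wild type.

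The 12 stromal ligands and inhibitors varied from mouse to mouse along with the fibroblast markers. Their score, an average over genes of log2 values centred on each gene's own mean, was 0.04 ± 0.244 in Tnfr1-/- (SD, n = 6), against -0.05 ± 0.335 in wild type (SD, n = 5), a difference of 0.09. It was lowest in wild-type replicates 2 and 1, at -0.46 and -0.35, and highest in Tnfr1-/- replicate 6, at 0.41, and wild-type replicate 4, at 0.32. Wild-type replicate 1 or 2 was the lowest library for 10 of the 12 genes. Without these 2 libraries the difference was -0.14, and without replicate 2 alone it was -0.01, so its sign rested on them. All 12 correlated positively with the fibroblast level and negatively with the epithelial level over the 11 libraries. At an adjusted p under 0.05, 7 did so with the fibroblast level and 8 with the epithelial level. The same count over all genes was not made, so these counts do not set the 12 apart from other genes.

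Sfrp2 followed the fibroblast level most closely (r = 0.96, permutation adjusted p = 0.0015, and rho = 0.97, permutation adjusted p = 0.0022), and r was 0.94 without wild-type replicates 1 and 2. Dkk3 was next (r = 0.95, permutation adjusted p = 0.0015, and rho = 0.85, permutation adjusted p = 0.0239), with r = 0.93 without the same libraries. Of all genes tested, 0.219% had an r at least as high as that of Sfrp2. The unadjusted permutation p of Sfrp2, 1e-05, was the smallest that 100000 permutations can give. Sfrp1 followed the smooth muscle level with r = 0.77 (permutation adjusted p = 0.0461), but r was 0.24 without wild-type replicates 2 and 4, so this relation rested on them.

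The 17 epithelial targets and feedback genes, 16 of them tested, were more even. Their score was -0.03 ± 0.071 in Tnfr1-/- and 0.03 ± 0.055 in wild type, a difference of -0.06. Without wild-type replicates 1 and 2 the difference over the same genes was -0.10. Within this group, Nkd1 ran against the epithelial level (r = -0.90, permutation adjusted p = 0.0044, and rho = -0.91, permutation adjusted p = 0.0085), and with the fibroblast level (r = 0.92, permutation adjusted p = 0.0048). Without wild-type replicates 1 and 2 its r with the epithelial level was -0.81. Cd44 also ran against the epithelial level (r = -0.83, permutation adjusted p = 0.0121), at r = -0.63 without the same 2 libraries. Znrf3 did too (r = -0.73, permutation adjusted p = 0.0467), but at r = -0.375 without them. None of the 16 followed the epithelial level upward at an adjusted p under 0.05. The highest such r was that of Ephb2, 0.73 (permutation adjusted p = 0.054), which was 0.224 without them.

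The members that did follow the epithelial level upward were Lgr4, Fzd5 and Tcf7l2. Lgr4 had r = 0.92 (permutation adjusted p = 0.0015) and rho = 0.94 (permutation adjusted p = 0.0085), and r was 0.86 without wild-type replicates 1 and 2. Tcf7l2 had r = 0.84 (permutation adjusted p = 0.0085) and 0.86 without them. Fzd5 had r = 0.88 (permutation adjusted p = 0.0075) and 0.65 without them. Fzd1, Fzd2 and Fzd8 ran the other way, with r from -0.92 for Fzd2 to -0.75 for Fzd1. In all, 220 relations were computed, 44 members against 5 marker levels, and p-values were adjusted over them. How many of all genes tested would pass was not counted, so passing does not set a member apart.

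**Figure D5:**
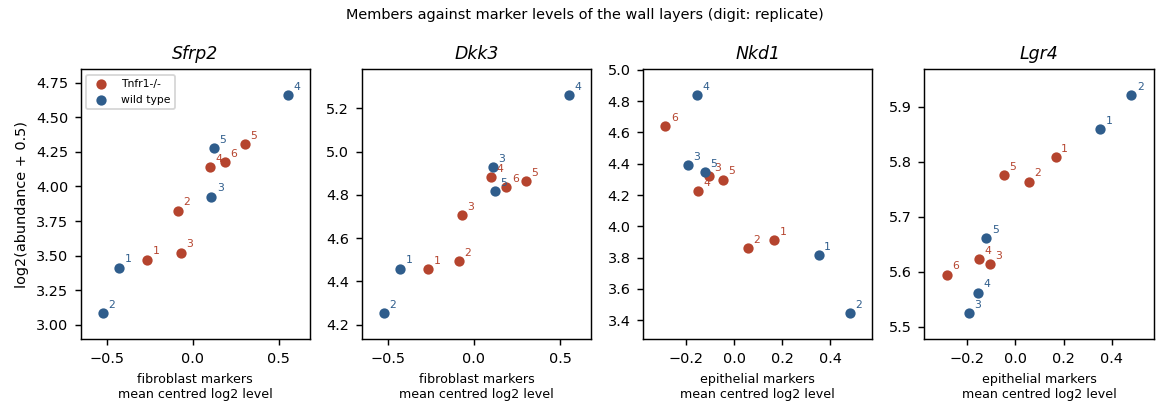
Log2(abundance + 0.5) of Sfrp2 and Dkk3 against the fibroblast level and of Nkd1 and Lgr4 against the epithelial level, each level a mean centred log2 value over the markers, 1 point per library with its replicate digit, Tnfr1-/- (n = 6) and wild type (n = 5). Sfrp2, Dkk3 and Lgr4 climb and Nkd1 descends along the axis, with wild-type replicates 1 and 2 at 1 end and both genotypes mixed between.

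The rest of the pathway was examined through 78 further genes, of which 63 were tested. None passed, with a smallest limma adjusted p of 0.45. The log2 fold change was positive for 50 and negative for 13, against 7224 and 7855 of all genes tested. Its median was 0.06, against -0.01 over all genes tested. At an unadjusted p under 0.05 there were 3, or 4.762%, against 9.37% of all genes, and all 3 were higher. Bcl9l, a co-activator of beta-catenin, was at 13.6 ± 0.814 in Tnfr1-/- and 11.3 ± 1.94 in wild type (log2 fold change 0.28, limma adjusted p = 0.45). Kremen1, a receptor for Dickkopf proteins, was at 15.1 ± 2.88 in Tnfr1-/- and 12 ± 1.23 in wild type (0.31, limma adjusted p = 0.475). Both of these overlapped between genotypes. Btrc, the ligase subunit that marks beta-catenin for degradation, was at 12.4 ± 0.543 in Tnfr1-/- and 11.0 ± 1.24 in wild type (0.17, limma adjusted p = 0.51). Tnks2, a tankyrase that destabilises Axin, came next at 39.6 ± 2.00 in Tnfr1-/- and 37.1 ± 1.01 in wild type (0.09, limma adjusted p = 0.55). In this list Wnt3, Wnt10a, Wnt10b, Fzd10 and Apcdd1 were lowest in Tnfr1-/- replicate 5 and highest in Tnfr1-/- replicate 6. The summed hair follicle markers had the same extremes, and their part in these values was not tested.

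At the level of single transcripts, 83 transcripts of 41 members were tested and none passed (smallest limma adjusted p 0.465), where 0.00902% of all transcripts did. At an unadjusted p under 0.05 there were 9, of which 7 were lower and 2 higher, against 8.26% of 33276 transcripts. Lower transcripts at such a p made up 3.93% and higher ones 4.33% of all. Single-end reads of 75 bases leave the split between overlapping transcripts uncertain. The authors' deposited table gave none of these 83 transcripts a q-value under 0.05, and the smallest among them was 0.636. Member transcripts that did not pass the filter were not looked up there.

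For Ephb2, the 16-exon coding transcript ENSMUST00000059287.13 held 67.2% of the gene's abundance. It was at 8.48, 9.53 and 12.4 (lowest, median and highest) in Tnfr1-/-, against 11.7, 12.4, 12.1, 12.7 and 12.1 in wild type. All but 1 of the Tnfr1-/- libraries, replicate 1, lay below every wild-type one. Its log2 fold change came to -0.31 (SE 0.09, adjusted p = 0.465 by limma). In contrast to Ephb2, the 16-exon coding transcript of Ephb3, ENSMUST00000006112.6, was higher in Tnfr1-/-, at 8.92 ± 1.33, against 6.92 ± 1.21 in wild type (log2 fold change 0.35, SE 0.13, limma adjusted p = 0.544). The 2 groups overlapped.

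For Prom1, the largest share of abundance, 35.4%, was assigned to ENSMUST00000196378.4, a 5-exon transcript at the 3' end. It was at 26.4, 31.6 and 47.4 (lowest, median and highest) in Tnfr1-/-, against 64.3, 44.1, 69.9, 28.3 and 68.0 in wild type. The wild-type libraries fell into 3 above every Tnfr1-/- one and 2 within their range (log2 fold change -0.66, SE 0.24, limma adjusted p = 0.541). The 27-exon transcript ENSMUST00000087441.10 was at 29.9 ± 3.59 in Tnfr1-/- and 38.2 ± 8.19 in wild type (-0.33, limma adjusted p = 0.564). The 24-exon transcript from a second start, ENSMUST00000177946.7, was at 20.4 ± 3.84 in Tnfr1-/- and 22.8 ± 5.52 in wild type and had an unadjusted limma p of 0.422.

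For Ctnnb1, 56.2% of the abundance was assigned to ENSMUST00000215573.1, a single-exon retained-intron transcript at the 3' end. It was at 362 ± 15.7 in Tnfr1-/- and 370.2 ± 40.6 in wild type. The 15-exon coding transcript ENSMUST00000007130.14 was at 149 ± 13.7 in Tnfr1-/- and 164 ± 16.5 in wild type (limma adjusted p = 0.669). A second coding transcript with 15 exons, ENSMUST00000178812.8, was at 94.1 ± 11.9 in Tnfr1-/- and 77.7 ± 11.9 in wild type (log2 fold change 0.28, limma adjusted p = 0.596). For Myc, the 2-exon transcript ENSMUST00000160009.1 held 44.9% and was at 9.46 ± 1.28 in Tnfr1-/- and 11.5 ± 1.57 in wild type (-0.27, limma adjusted p = 0.57). Both 3-exon transcripts of Myc at an unadjusted p under 0.05 have the same exons and the same values, so they are 1 measurement. For Ccnd1, ENSMUST00000093962.4 held 98.2% of the abundance and gave the gene's value.

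The promoters were searched for the core letters that TCF and LEF factors bind. RefSeq (GRCm38.p6) start sites were available for 27 of the 45 members, with 38 windows of 250 bases before the start. The motif, searched on both strands, was CTTTG followed by AA, AT, TA or TT, and a window with several or overlapping matches counted once. It was found in 5 member windows, 13.2%, against 14.8% of 32851 windows of the same length over all genes. None was found in the 12 windows of the 10 epithelial targets with an entry. Myc, Ccnd1, Lgr5, Smoc2, Sox9, Znrf3 and Notum were not searched. The 5 matches were in Fzd7, Lef1, Wnt5b, Wnt11 and Tcf7l2. They are shown on the gene's strand with the motif in capitals. The motif lay on the gene's strand in Wnt5b and Tcf7l2, and on the opposite strand in Fzd7, Lef1 and Wnt11, where its reverse complement appears.
Fzd7, chr1:59482006-59482034, + strand: tccacagagaaAACAAAGcgcgctattgg
Lef1, chr3:131156136-131156164, + strand: caacctcagaaTACAAAGtaggattgcat
Wnt5b, chr6:119449440-119449468, - strand: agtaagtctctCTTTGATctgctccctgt
Wnt11, chr7:98835050-98835078, + strand: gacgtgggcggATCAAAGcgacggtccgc
Tcf7l2, chr19:55895296-55895320, + strand: aaaatatcaggCTTTGTTcttttga

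Of these, Fzd7 was the 1 member also among those at an unadjusted p under 0.05. In Lef1, Tcf7l2 and Wnt5b the window belongs to a start inside the gene, since Lef1 spans 131110471 to 131224356 on chromosome 3. The whole windows of Fzd7 and of Ephb2 are shown because these 2 genes lay on opposite sides of the comparison. Neither window overlaps an annotated GENCODE exon. The window of Fzd7 holds 17 CpG and 65.2% G and C, with 1 motif in capitals. The window of Ephb2 holds 20 CpG and 68.4% G and C, with none of the searched letters. The windows of Prom1, also lower in Tnfr1-/-, held none of them either and are not shown.
Fzd7, chr1:59481897-59482146, + strand: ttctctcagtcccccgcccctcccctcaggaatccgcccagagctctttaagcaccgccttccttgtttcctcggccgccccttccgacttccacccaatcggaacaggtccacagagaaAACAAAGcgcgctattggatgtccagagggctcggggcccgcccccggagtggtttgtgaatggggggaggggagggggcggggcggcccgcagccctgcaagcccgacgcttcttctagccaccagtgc
Ephb2, chr4:136836013-136836262, - strand: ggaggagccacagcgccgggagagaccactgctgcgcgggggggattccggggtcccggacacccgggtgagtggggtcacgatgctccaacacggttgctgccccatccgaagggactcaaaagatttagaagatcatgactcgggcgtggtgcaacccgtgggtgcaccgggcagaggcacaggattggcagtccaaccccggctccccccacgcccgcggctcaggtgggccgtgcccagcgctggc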

How the data were processed

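RNA of 6 Tnfr1-/- and 5 wild-type colons was analysed from 1 deposited table. Per the labels' protocols, RNA came from Trizol homogenates by Direct-zol, and stranded mRNA libraries gave single-end reads of 75 bases (NextSeq). CASAVA, kallisto, sleuth and mm10 are named, with no versions, in the submitters' processing notes.

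The deposited values are a normalized signal per transcript (TPM over a size factor per library). The deposited p-value and q-value of a transcript are from the authors' own test. Typical reads came from the deposited means of estimated counts, which are natural log (ln) values. Of 113991 lines, repeated lines of 584 transcripts and 97 transcripts without a gene were left out, and values were summed over 35683 genes.

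Genes and transcripts with a value of at least 1 in at least 5 libraries entered a comparison of genotypes on log2(value + 0.5) in limma 3.58.1 (trend, two-sided, Benjamini-Hochberg over everything tested) in R 4.3.3. That scale understates changes of low genes. Correlations used 100000 permutations (scipy 1.17.1). Figures used matplotlib 3.10.9, and tables pandas 2.3.3 and numpy 2.4.6 in Python 3.11.15. Gene positions follow GENCODE M21 (GRCm38, the build of mm10), and promoters RefSeq.

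The members and lists were chosen with earlier results of these data known. The lowest, median and highest Tnfr1-/- value and each wild-type value, or the values of all libraries, are given for members at an unadjusted p under 0.05, the most abundant member of each role and those without overlap between groups. Up to 4 other pathway genes with the smallest p are named. Lef1, Notum, Rspo1 and Sfrp2 were singled out after their values were seen. The hair follicle and small intestine markers were also listed after that. Alternatives were other filters, pseudocounts, scalings, weights, a replicate block, marker covariates and leaving out libraries.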

Additional observations from a re-analysis of the deposited data

Results flagged for a closer look

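In 104 groups of values, those of each member, Tnfrsf1a, 4 other pathway genes and both scores in each genotype, 4 held 1 library far from the rest by Dixon's criterion, where chance gives about 1 in 20, or 5.2. Smoc2 was at 28.2 in wild-type replicate 4, and the next highest wild-type library was at 21.6. Olfm4 was at 3.87 in Tnfr1-/- replicate 4, and the next highest Tnfr1-/- library was at 1.21. Bcl9l was at 12 in Tnfr1-/- replicate 1, the lowest of its group, and the next lowest was at 13.6. Kremen1 was at 20.4 in Tnfr1-/- replicate 2, and the next highest Tnfr1-/- library was at 15.3.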

How the results depend on the processing

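No member passed after adjustment in any of the settings tried. Of the 44 tested members, 19 kept the sign of their fold change in every setting that tested them, among them Myc, Prom1, Ccnd1, Ephb2 and Fzd7. Myc was the 1 member at an unadjusted p under 0.05 in every setting. The count of members at such a p, 5, was 2 (Prom1 and Myc) with columns rescaled to equal sums, 3 with the replicate block (Myc, Prom1 and Wnt5b, but not Ccnd1, Ephb2 or Fzd7), and 3 to 6 with 1 library left out. It was 3 without Tnfr1-/- replicate 2, 5 or 6 or wild-type replicate 1. With the epithelial covariate it was 6, all lower, in a fit where 16.8% of all genes were at such a p. The count of other pathway genes, 3, was 6 with quantile normalization, the replicate block or the hair follicle covariate (chosen after seeing the data), 5 with sample quality weights or the epithelial covariate, and 2 to 5 with 1 library left out (5 without Tnfr1-/- replicate 5 or wild-type replicate 4). Genes called, 1, were 3 with sample quality weights, 7 with the epithelial covariate and 1 to 2 with 1 library left out (2 without wild-type replicate 1). Transcripts called, 3, were 5 without wild-type replicates 1 and 2, and 1 to 10 with 1 library left out (10 without wild-type replicate 2, 6 without its replicate 4 or 5, and 1 without its replicate 1 or Tnfr1-/- replicate 3 or 5). The epithelial target score difference, -0.061, was -0.126 without wild-type replicates 1 and 2, where Notum did not pass the filter (-0.096 over the same genes, computed after seeing the data), and -0.288 as a mean of z values, which is another scale. The Ctnnb1 fold change ran from -0.041 to 0.001 on the log2 scale with 1 library left out and turned positive without wild-type replicate 1. The causes were not tested. The deviations of same-numbered samples of the 2 genotypes had correlations from -0.223 to 0.383, with 3 of 5 above 0.1. Without values for differently numbered samples beside them, these cannot decide whether the numbers mark shared batches. The numbers were not taken as pairs in the main fit, and the replicate block above gives the other choice. Depth limits Notum (about 14.6 reads in a typical library), Rspo1, Rspo2 and Olfm4. The labels give no litter or sex, so neither could be set against genotype.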
